A study of Mus musculus with 10 samples.

Results

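The clock output bZIP and bHLH regulators are 7 transcription factor genes that lie downstream of the circadian clock or feed back on it: Dbp, Tef, Hlf, Nfil3, Ciart, Bhlhe40 and Bhlhe41. Each was read from its row of the deposited array table, and each had exactly 1 row, among 30743 genes tested. The annotation of the Ciart row gives the gene's older name Gm129 beside Ciart, and RefSeq lists both names for 1 gene, so the row was kept. At the site of a cortical impact Hlf and Bhlhe40 fell, to 48.2% and 58.2% of the contralateral level. Ciart stood at 64.3% with groups that did not overlap, but it missed the threshold over all genes. Dbp, Tef, Nfil3 and Bhlhe41 did not pass the test.

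The circadian clock of mammals is a transcriptional loop in which CLOCK or NPAS2 pairs with BMAL1 (encoded by Arntl) and activates genes through E-boxes, while PER and CRY proteins repress that activity. DBP, TEF and HLF are the PAR bZIP activators, named for a domain rich in proline and acidic amino acids, and they carry clock time to genes with D-box elements. NFIL3 (also called E4BP4) binds the same D-box and represses it. CIART (also called CHRONO) binds BMAL1 and represses the complex, and BHLHE40 and BHLHE41 (DEC1 and DEC2) are bHLH repressors that act at E-boxes. In the brain, mice without the 3 PAR bZIP genes are known for epileptic seizures, and Bhlhe40 is also known in rat as a gene that neuronal activity induces.

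RNA came from mouse brain 7 days after controlled cortical impact, an injury model that delivers a piston blow to exposed cortex on one side of the head. The ipsilateral group (5 samples) was tissue from the impact site, and the contralateral group (5 samples) was the matching region of the opposite hemisphere. All animals were adult mice of 8 to 12 weeks, male and female per the labels, and all received the same 2 mm impact; the labels name no strain, genotype, drug or hour of tissue collection. There was 1 whole-transcript array per sample, so 5 arrays per side set the precision. The contralateral tissue came from injured mice, and no uninjured brain was analysed here.

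Signals are log2 values as deposited, and array medians over all rows lay between 4.79 and 4.84 in ipsilateral tissue and between 4.71 and 4.77 in contralateral tissue. Every ipsilateral median was thus above every contralateral one. Pan-neuronal markers were high on every array, with a mean signal of the 5 markers (Snap25, Syt1, Rbfox3, Tubb3 and Map2) of 14.83 to 15.22 ipsilaterally and 15.02 to 15.30 contralaterally. Calls rest on the two-sided limma test of ipsilateral minus contralateral signal, with Benjamini-Hochberg adjustment over all 30743 genes and a threshold of 0.05. By this test 1 of the 5 pan-neuronal markers, Rbfox3, was lower ipsilaterally (2 lower and 0 higher at an unadjusted p under 0.05). In bulk tissue, fewer cells of a type and less RNA per cell cannot be told apart.

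The promoters of the regulators differ in the clock elements they hold near the start site, and 5 of them are shown: Ciart, Tef and Bhlhe41 hold an E-box there, and Dbp and Hlf hold none. Sequences are those before RefSeq start sites (GRCm38.p6). The set of promoter sequences used here held 6 of the 7 genes, Tef with 2 start sites, and Bhlhe40 was not among them. In the 250 bases before each start, CACGTG (the E-box, its own reverse complement), TTANGNAA (a D-box form, both strands) and AGGTCA (the core bound by ROR and REV-ERB receptors, both strands) were searched, and no 2 matches overlapped. Capitals mark matches, and only bases outside the gene's annotated extent are printed.
Ciart, chr3:95882258-95882478, minus strand: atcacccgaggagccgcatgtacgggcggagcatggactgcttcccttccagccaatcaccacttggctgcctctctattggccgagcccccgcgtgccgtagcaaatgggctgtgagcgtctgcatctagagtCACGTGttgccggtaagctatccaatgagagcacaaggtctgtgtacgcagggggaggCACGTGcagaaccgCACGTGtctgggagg
Tef, first start site, chr15:81802423-81802672, plus strand: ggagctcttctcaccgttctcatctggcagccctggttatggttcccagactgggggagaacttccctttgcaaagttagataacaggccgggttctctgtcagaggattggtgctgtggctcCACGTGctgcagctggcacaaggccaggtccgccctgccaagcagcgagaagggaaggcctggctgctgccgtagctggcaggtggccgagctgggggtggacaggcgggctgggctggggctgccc
Bhlhe41, chr6:145865421-145865670, minus strand: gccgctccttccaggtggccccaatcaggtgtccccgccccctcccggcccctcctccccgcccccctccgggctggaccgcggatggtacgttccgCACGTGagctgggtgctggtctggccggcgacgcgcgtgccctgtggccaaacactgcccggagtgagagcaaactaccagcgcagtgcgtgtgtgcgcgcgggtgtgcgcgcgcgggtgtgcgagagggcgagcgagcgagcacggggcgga
Dbp, chr7:45704997-45705099, plus strand: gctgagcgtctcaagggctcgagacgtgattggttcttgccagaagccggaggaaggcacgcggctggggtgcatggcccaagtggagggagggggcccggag
Hlf, chr11:90390918-90391167, minus strand: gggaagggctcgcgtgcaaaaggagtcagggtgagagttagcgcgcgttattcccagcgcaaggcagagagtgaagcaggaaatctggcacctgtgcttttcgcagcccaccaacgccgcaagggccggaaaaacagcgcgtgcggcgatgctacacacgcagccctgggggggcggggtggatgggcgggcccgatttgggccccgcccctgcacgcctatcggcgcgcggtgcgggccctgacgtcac
Ciart held 3 E-boxes, which began 116, 58 and 44 bases before the start. Each Tef start site held 1 (127 bases before the first and 138 before the second), and Bhlhe41 held 1 at 153 bases. Dbp, Hlf and Nfil3 held no CACGTG in this window, and Nfil3 held 1 AGGTCA at 12 bases. TTANGNAA was in none of the 7 windows. Of all 32851 promoters in the table, 6.02% held CACGTG, 10.3% TTANGNAA and 14.0% AGGTCA over the same length. These are matches of letters in a short window, and elements farther away were not searched.

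Among the PAR bZIP genes, Hlf fell while no difference was called for Dbp or Tef. Hlf had log2 signals of 8.97, 9.29, 9.23, 9.22 and 9.86 on ipsilateral arrays 1 to 5, against 10.38, 10.49, 10.57, 9.91 and 10.48 on contralateral arrays 1 to 5. The highest ipsilateral array (replicate 5) lay just below the lowest contralateral one (replicate 4), and the groups did not overlap. The means were 9.31 ± 0.33 and 10.37 ± 0.26 (SD, n = 5 per side), a log2 difference of -1.05 ± 0.17 (SE of the fit, limma adjusted p = 0.00576).

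Dbp, the PAR bZIP gene best known for the depth of its daily rhythm, stood at 9.60, 10.48, 10.63, 10.56 and 11.03 ipsilaterally, against 9.88, 10.50, 10.51, 10.43 and 10.72 contralaterally. Replicate 1 was the lowest and replicate 5 the highest array on either side, and the contralateral range lay within the ipsilateral one. The log2 difference was 0.05, with a 95% interval of -0.48 to 0.58 (limma adjusted p = 0.933). Tef, the thyrotroph embryonic factor, stood at 7.66, 8.12, 8.24, 7.99 and 8.11 ipsilaterally, against 7.90, 7.94, 8.07, 8.12 and 8.05 contralaterally. Its log2 difference was 0.01, with an interval of -0.22 to 0.23 (limma adjusted p = 0.979). The Tef interval leaves out a change as large as that of Hlf in either direction, and the wider Dbp interval does so too.

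Nfil3, the D-box repressor, had log2 signals of 6.20, 5.47, 5.60, 5.54 and 5.35 ipsilaterally, against 5.91, 5.73, 5.79, 5.57 and 5.63 contralaterally. Replicate 1 was the highest array on each side, the reverse of Dbp. The groups overlapped, and the log2 difference was -0.09 with an interval of -0.41 to 0.23 (limma adjusted p = 0.769).

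The repressors of the E-box arm did not move alike. Bhlhe40 had log2 signals of 9.62, 9.19, 9.63, 9.24 and 9.09 ipsilaterally, against 9.96, 10.01, 10.08, 10.13 and 10.49 contralaterally, with no overlap. It averaged 9.35 ± 0.25 ipsilaterally and 10.13 ± 0.21 contralaterally (SD, n = 5 per side), and fell by 0.78 ± 0.13 on the log2 scale (SE, limma adjusted p = 0.00829). Its paralogue Bhlhe41 stood at 8.80, 8.90, 9.07, 9.44 and 9.88 ipsilaterally, against 8.50, 9.05, 9.13, 8.72 and 9.05 contralaterally. Ipsilateral replicates 4 and 5 lay above every contralateral array and the other 3 lay among them. The log2 difference was 0.33 ± 0.20 (SE, limma adjusted p = 0.402), with an interval of -0.12 to 0.78.

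Ciart had log2 signals of 6.37, 7.22, 7.15, 6.94 and 7.28 ipsilaterally, against 7.35, 7.56, 7.79, 7.65 and 7.79 contralaterally. Every ipsilateral array was below every contralateral array, with ipsilateral replicate 1 far below the others. The means were 6.99 ± 0.37 and 7.63 ± 0.18 (SD, n = 5 per side), and the log2 difference of -0.64 ± 0.17 (SE) just missed the threshold (limma adjusted p = 0.0517). Without ipsilateral replicate 1 the difference was smaller, at -0.48, and passed (limma adjusted p = 0.0255). The value also passed with quantile scaling (0.0429) and with each array centred on its median (0.0265). It did not pass in 9 of the 10 fits that left out 1 array (limma adjusted p up to 0.125). Nor did it pass with replicates 2 and 4 of either side removed (limma adjusted p = 0.253).

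**Figure D1:**
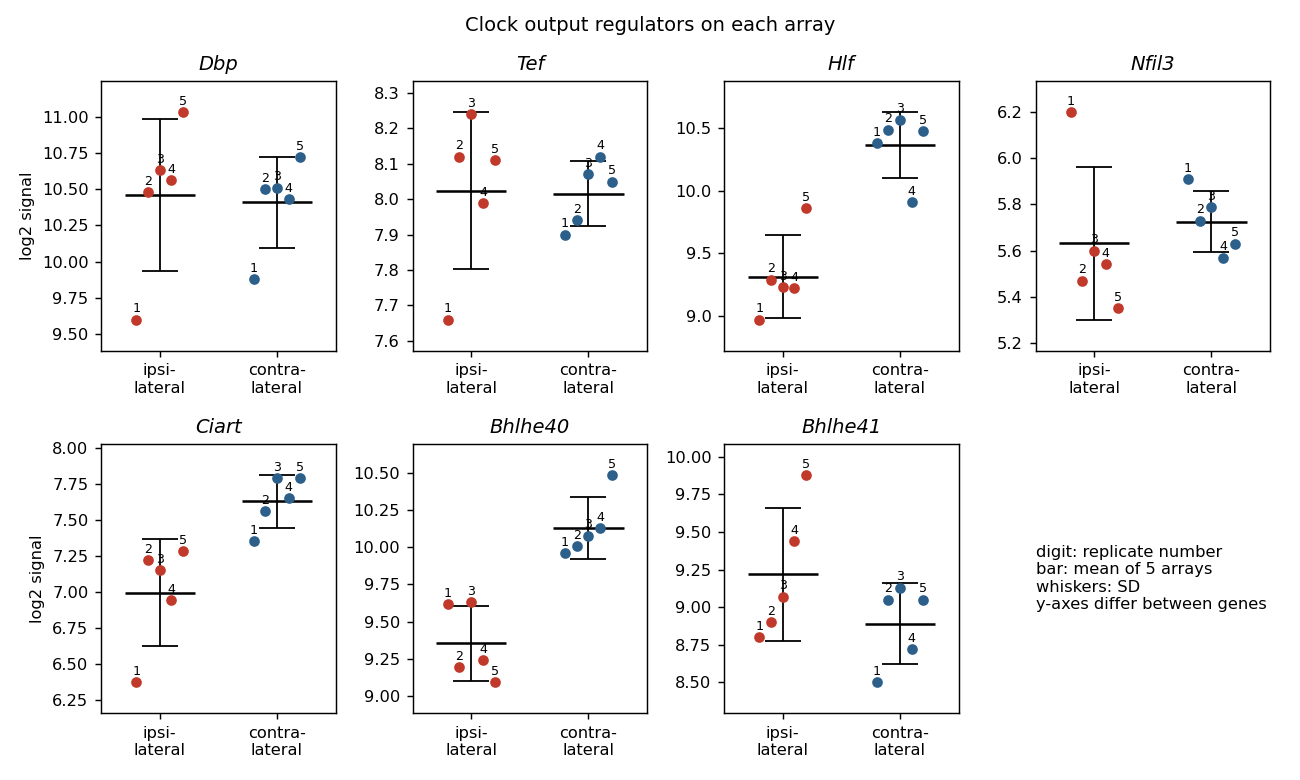
Log2 signal of the 7 regulators on each array (y-axis, a separate scale for each gene), ipsilateral arrays left and contralateral arrays right; digits are replicate numbers, horizontal bars are means of 5 arrays and whiskers are SD. Hlf, Bhlhe40 and Ciart show no overlap between sides, and replicate 1 is the lowest array of each side for Dbp, Tef and Ciart and the highest for Nfil3.

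Over the 7 genes, 2 fell in ipsilateral tissue and none rose in limma, where 5.43% of all genes were called, 4.24% lower and 1.19% higher. At an unadjusted p under 0.05, 3 were lower and 0 higher. The groups did not overlap for 3 of the 7, all lower ipsilaterally; over all genes 7.2% did not overlap, and 5.16% did so with lower ipsilateral values. The median log2 difference was -0.09 over the 7 genes and 0.02 over all genes tested. Over all genes, 365 were higher and 1303 lower, and with each array centred on its median 231 were higher and 2634 lower. The calls of Hlf and Bhlhe40 held in each of the 10 fits that left out 1 array. With replicates 2 and 4 of either side removed, which left 3 arrays per side, neither passed (limma adjusted p = 0.0723 and 0.149).

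Part of the core clock loop was called lower in ipsilateral tissue. Of 16 measured genes, 7 (43.8%) fell, 9 were not called and none rose, where 4.24% of all genes were called lower (limma; 10 lower and 0 higher at an unadjusted p under 0.05), with a median log2 difference of -0.33. The largest falls were those of the nuclear receptors Rora and Rorb, which activate Arntl transcription, at -1.27 ± 0.15 and -1.25 ± 0.17 (SE, limma adjusted p = 0.00162 and 0.00291). Rora and Rorb are each read from the brightest of their rows, and the mean of the rows gave -0.65 for Rora and -1.11 for Rorb. The period gene Per1 fell by 0.68 ± 0.15 and Npas2, a CLOCK relative expressed in forebrain, by 0.54 ± 0.12 (SE, limma adjusted p = 0.0267 and 0.0227). The other called genes were the cryptochromes Cry1 and Cry2 and the kinase gene Csnk1e, with log2 differences of -0.51, -0.52 and -0.24.

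Arntl itself stood at 9.81 ± 0.32 ipsilaterally and 10.36 ± 0.19 contralaterally (SD, n = 5 per side) and was not called (log2 difference -0.54, limma adjusted p = 0.0634). The count of core genes called lower was 4 without ipsilateral replicate 2, without ipsilateral replicate 4 or without contralateral replicate 3, and 0 with replicates 2 and 4 of either side removed. Per1 was not called without ipsilateral replicate 2, 4 or 5 or contralateral replicate 3, 4 or 5, each left out alone, with limma adjusted p of 0.0548 to 0.0745. Npas2 was not called without ipsilateral replicate 2 or 4 or contralateral replicate 1 or 3, with limma adjusted p of 0.0511 to 0.0644.

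Among genes known to follow the clock or the PAR bZIP factors, Wee1 and Coq10b fell. Of 15 measured, 2 (13.3%) were called lower and none higher in limma, against 4.24% of all genes lower (5 lower and 2 higher at an unadjusted p under 0.05). Wee1 is a cell cycle kinase gene with E-boxes in its promoter, and Coq10b acts with coenzyme Q. Their log2 differences were -0.62 ± 0.11 and -0.66 ± 0.08 (SE, limma adjusted p = 0.00792 and 0.00185). Pdxk, the pyridoxal kinase gene that PAR bZIP factors control in brain, stood at 11.26 ± 0.19 ipsilaterally and 11.17 ± 0.14 contralaterally (SD, n = 5 per side, limma adjusted p = 0.655). Of 14 bZIP relatives 1 (7.14%) fell, the cAMP-responsive modulator Crem, at -0.40 ± 0.07 (SE, limma adjusted p = 0.00848). Of 13 bHLH-Orange and Id relatives 1 (7.69%) fell, Id2, an inhibitor of bHLH dimers, at -0.86 ± 0.16 (SE, limma adjusted p = 0.0131). Over all genes 5.43% were called, so 1 gene in lists of this size is near the background. The median log2 differences of these 3 lists were -0.07, 0.04 and 0.16, against 0.02 over all genes. With replicates 2 and 4 of either side removed, Coq10b, Crem and Id2 were not called (limma adjusted p = 0.0501, 0.0915 and 0.131).

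**Figure D2:**
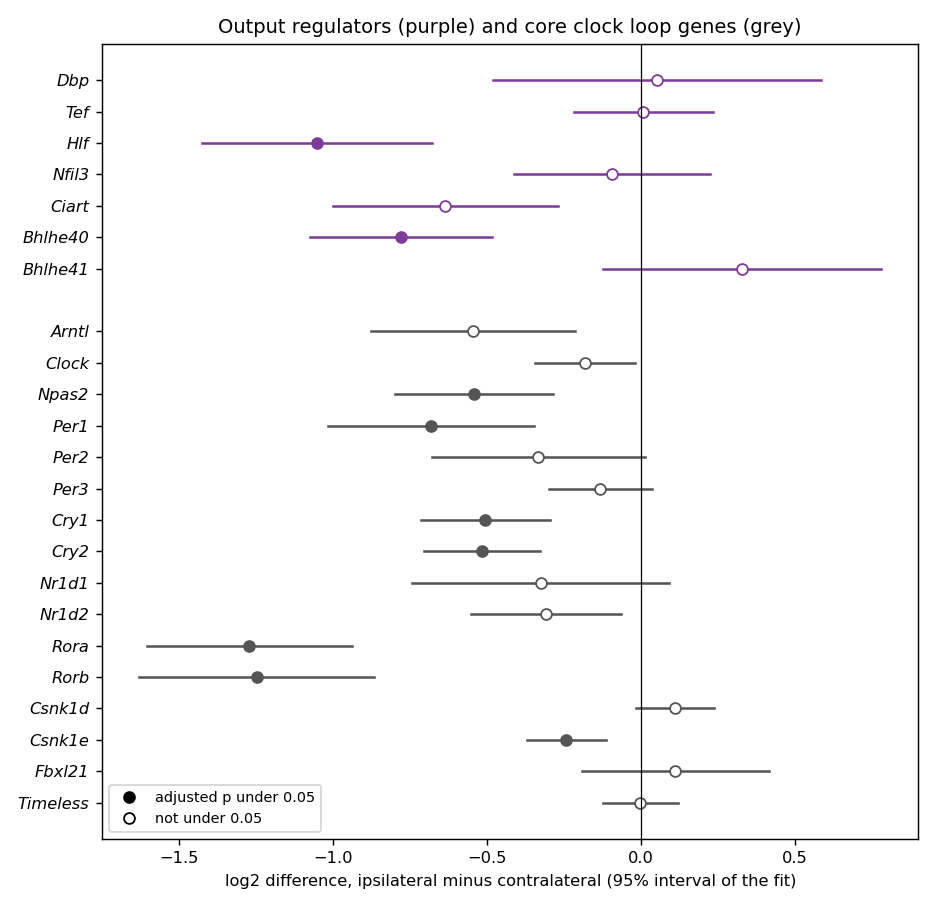
Log2 difference, ipsilateral minus contralateral (x-axis), of the 7 regulators (purple) and 16 core clock loop genes (grey) with the 95% interval of the fit; filled circles have an adjusted p under 0.05. Hlf at -1.05 stands beside Rora and Rorb, while Dbp, Tef and Nfil3 lie near 0.

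Paralogues and partners were then compared within each array, where an offset of a whole array cancels. These 4 differences were chosen because of the values described above, so they are given as descriptions with no test. On the log2 scale Hlf minus Dbp was -0.63, -1.19, -1.40, -1.34 and -1.17 on ipsilateral arrays 1 to 5, against 0.50, -0.01, 0.06, -0.52 and -0.24 on contralateral arrays 1 to 5. The 2 sides did not overlap, and the side difference was -1.10 ± 0.22 (SE, n = 5 per side). Hlf minus Tef differed by -1.06 ± 0.19 (SE, n = 5 per side) in the same direction, although its ipsilateral maximum (1.75) and contralateral minimum (1.79) nearly met.

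Ciart minus Dbp was -3.23, -3.26, -3.48, -3.62 and -3.75 ipsilaterally, against -2.53, -2.94, -2.72, -2.78 and -2.93 contralaterally. The side difference was -0.69 ± 0.13 (SE, n = 5 per side). Taken relative to Dbp, ipsilateral replicate 1 no longer stood apart from the other ipsilateral arrays. Bhlhe40 minus Bhlhe41 was 0.82, 0.29, 0.56, -0.20 and -0.79 ipsilaterally, against 1.46, 0.96, 0.95, 1.41 and 1.44 contralaterally, a side difference of -1.11 ± 0.31 (SE, n = 5 per side).

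**Figure D3:**
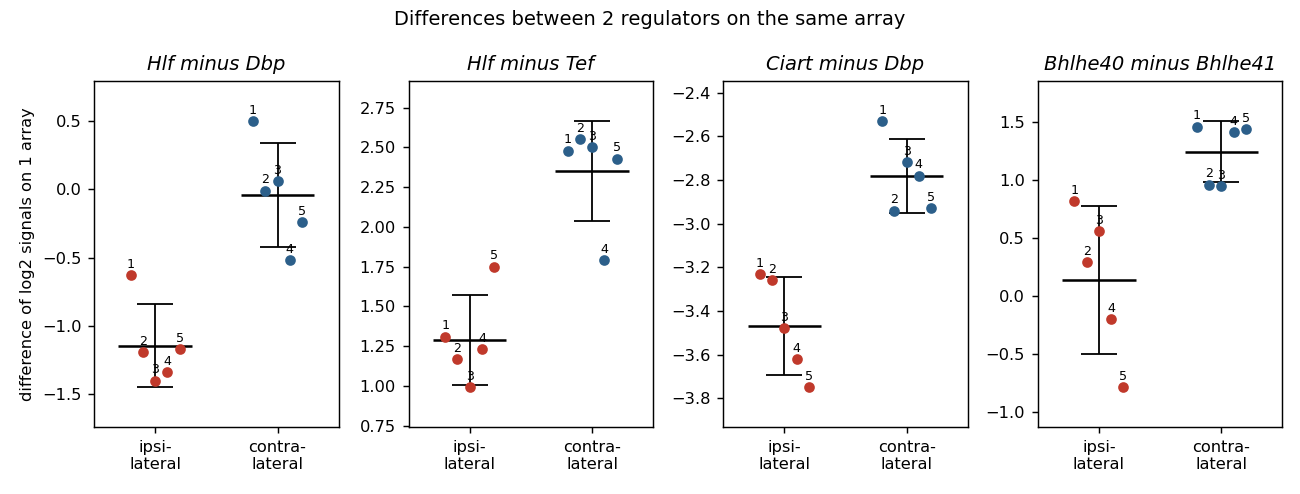
Difference of the log2 signals of 2 regulators on the same array (y-axis, a separate scale for each pair), ipsilateral arrays left and contralateral arrays right, with replicate numbers, means of 5 arrays and SD. In all 4 pairs every ipsilateral array lies below every contralateral array, and the gap is narrowest for Hlf minus Tef (1.75 against 1.79).

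Once the mean of each side was subtracted, several of these genes deviated together from array to array. Dbp deviated by -0.86 on ipsilateral replicate 1 and by -0.53 on contralateral replicate 1, the lowest values of their sides. On the same pair of arrays Ciart deviated by -0.62 and -0.28, and Tef by -0.36 and -0.12. Nfil3 went the other way, at 0.57 and 0.18, and so did Arntl, at 0.50 and 0.32. Replicate 5 showed the opposite picture on both sides, with Dbp at 0.57 and 0.31, Arntl at -0.36 and -0.17, and Nfil3 at -0.28 and -0.10.

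Over the 10 arrays, Dbp deviations had a Pearson r of 0.92 with Ciart, 0.80 with Tef, 0.80 with Bhlhe41, 0.61 with Hlf, -0.20 with Bhlhe40 and -0.90 with Nfil3. Among the core loop genes, named here for their r, Nr1d1 and Nr1d2 (which encode the REV-ERB repressors) had r of 0.84 and 0.79 with Dbp, and Arntl had -0.96. Ranked among the 30742 other genes, Ciart was 13 from the highest r with Dbp and Arntl 3 from the lowest. The correlations are descriptions of 10 arrays that were centred by side, and they rest in part on the 2 arrays numbered 1. Without these, over 8 arrays, r with Dbp was -0.78 for Arntl, 0.80 for Bhlhe41, 0.76 for Hlf and 0.73 for Nr1d2. It was 0.53 for Ciart, 0.50 for Nr1d1, -0.49 for Nfil3 and 0.02 for Tef.

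Hlf and Bhlhe41 followed each other with r of 0.76 over 10 arrays and 0.80 without the arrays numbered 1. Many other genes followed each of them more closely. Among 30742 genes over the 10 arrays, Bhlhe41 was 368 from the highest r with Hlf, and Hlf was 1219 from the highest with Bhlhe41. Bhlhe40 deviations were not close to those of any other member, with r between -0.42 (Hlf) and 0.39 (Nfil3). The labels do not say whether the ipsilateral and contralateral samples of a number came from 1 mouse.

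**Figure D4:**
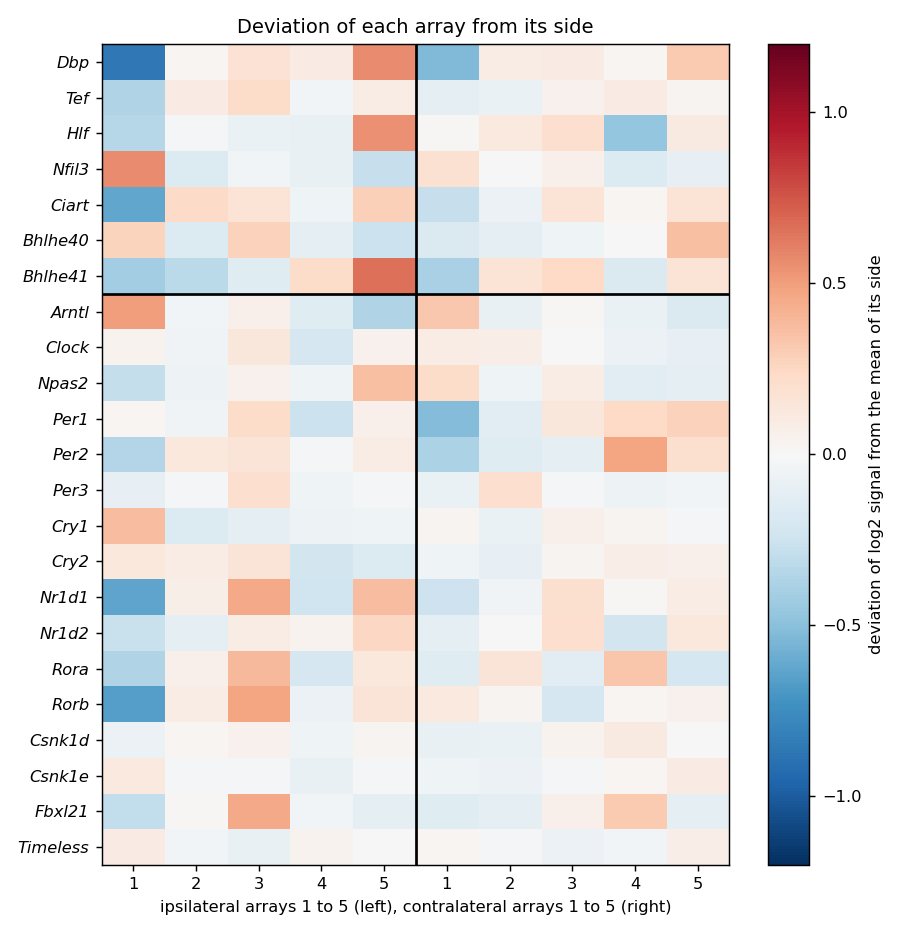
Deviation of the log2 signal from the mean of its side (colour) for the 7 regulators (above the line) and 16 core clock loop genes (below it), on ipsilateral arrays 1 to 5 and contralateral arrays 1 to 5. The columns numbered 1 are blue for Dbp, Tef and Ciart and red for Nfil3 and Arntl on both sides.

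**Figure D5:**
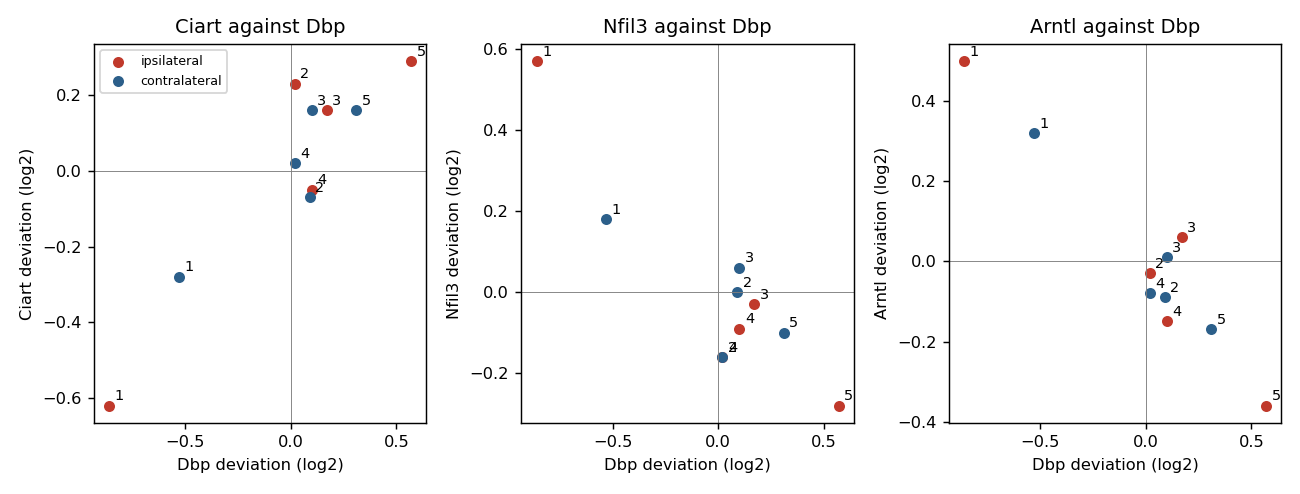
Deviation of Ciart, Nfil3 and Arntl from the side mean (y-axes, log2) against that of Dbp (x-axes, log2), 1 point per array with its replicate number. The 2 arrays numbered 1 lie at the low end of Dbp, and Arntl runs downward against Dbp among the other 8 arrays too (r = -0.78).

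Some markers of several cell types and of activity were called between the sides on the same arrays. Over all genes 4.24% were called lower and 1.19% higher in limma. The mean log2 signal of 4 excitatory cortical neuron markers was 11.71 to 11.99 ipsilaterally and 12.35 to 12.72 contralaterally, with 2 of the 4 called lower. Of 6 microglia markers none was called in limma (5 higher and 0 lower at an unadjusted p under 0.05), and their mean signal was 9.06 to 10.53 ipsilaterally and 8.61 to 9.24 contralaterally. Of 6 astrocyte markers 1 rose (4 higher and 1 lower at an unadjusted p under 0.05), with means of 10.37 to 11.37 ipsilaterally and 10.06 to 10.49 contralaterally. Of 6 monocyte and macrophage markers 1 rose, Cd163 (5 higher and 0 lower at an unadjusted p under 0.05), with means of 6.21 to 8.17 ipsilaterally and 5.65 to 6.39 contralaterally.

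Of 6 inhibitory neuron markers 2 fell, Pvalb and Vip, with means of 10.58 to 11.58 ipsilaterally and 11.06 to 11.37 contralaterally. The differences of this list were split, 3 negative and 3 positive, with a median log2 difference of -0.07. Of 3 oligodendrocyte markers none was called in limma (2 lower and 0 higher at an unadjusted p under 0.05), with means of 9.09 to 10.45 ipsilaterally and 9.76 to 11.26 contralaterally. Of 4 activity-induced genes 2 fell, with means of 7.88 to 11.13 ipsilaterally and 11.26 to 11.92 contralaterally. None was called among 5 T and NK cell, 3 oligodendrocyte precursor, 5 endothelial and pericyte, and 4 striatal neuron markers. At an unadjusted limma p under 0.05, 2 endothelial and pericyte markers were higher and 1 lower. By the same measure 2 striatal markers were higher and 0 lower, with means of 6.59 to 7.83 ipsilaterally and 6.34 to 6.66 contralaterally.

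Ipsilateral replicates 4 and 5, which held the 2 highest Bhlhe41 signals, also had the 2 highest microglia means (10.53 and 10.36) and astrocyte means (11.19 and 11.37). The match was not particular to these cell types. The same 2 arrays had the highest ipsilateral means for monocytes and macrophages (7.81 and 8.17) and for oligodendrocytes (10.45 and 10.20). They also did for oligodendrocyte precursors (8.85 and 8.78) and for endothelial cells and pericytes (8.17 and 8.52). Contralateral replicate 4, the lowest contralateral array for Hlf, had the lowest contralateral means for excitatory cortical neurons (12.35) and for 3 oligodendrocyte markers (9.76, against 10.79 to 11.26 on the other 4 arrays). It was also the lowest contralateral array for inhibitory neurons (11.06), astrocytes (10.06) and oligodendrocyte precursors (8.56). For pan-neuronal markers (15.30) and striatal neurons (6.66) it was the highest. Ipsilateral replicate 1, the lowest array of all for Dbp and Ciart, had an activity-induced mean of 11.13, against 7.88 to 9.15 on the other ipsilateral arrays. Activity was not the only list in which it stood at an end. It was also the highest ipsilateral array for inhibitory neurons (11.58). It was the lowest ipsilateral array for excitatory cortical neurons (11.71), astrocytes (10.37) and microglia (9.06). The same held for monocytes and macrophages (6.21) and for oligodendrocyte precursors (8.42). The part of these cell types and of activity in the differences was not tested.

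For each regulator the gene whose deviations from the side means followed it most closely over the 10 arrays was taken from 12009 brighter genes. These were Plpp3, a lipid phosphate phosphatase gene, for Dbp (r = 0.96), Egfl6 for Tef (0.99), Cyp4f13 for Hlf (0.96), Rasgrp1 for Nfil3 (0.99), the kinase gene Map2k6 for Ciart (0.97), Frmd6 for Bhlhe40 (0.93) and Slc22a4 for Bhlhe41 (0.96). With so many genes and 10 arrays, the highest r of a gene is high by selection. Frmd6 was itself called lower ipsilaterally, with a log2 difference of -1.16, as Bhlhe40 was, and Slc22a4 was called higher, at 0.72 (limma adjusted p = 0.00155 and 0.0188).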

How the data were processed

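RNA from 10 mouse brain samples was measured on Affymetrix whole-transcript arrays, 5 ipsilateral and 5 contralateral to the impact. The authors deposited 1 table of log2 signals with 65956 rows, for which the submitters' processing notes name Transcriptome Analysis Console 4.0. The background correction, normalization, summarization and genome build are not given in the sources used here, and that the scale is log2 was inferred from the range of the signals. Rows were named from the platform annotation and updated by Entrez identifier from RefSeq (GRCm38.p6, names only). Rows with 1 symbol were kept, as were 612 rows whose symbols are all names of 1 gene, Ciart among them. The brightest row by 10-array mean was used per gene, which gave 30743 genes.

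Ipsilateral minus contralateral was fitted in limma 3.58.1 (R 4.3.3) with lmFit and eBayes and no covariates. Benjamini-Hochberg adjustment ran over all genes, and the threshold was an adjusted p of 0.05. The steps were tested on simulated data. The labels number biological replicates without naming the animals, so p-values measure the spread between these samples, and they give no batch or scan date to test. Deviations of same-numbered arrays correlated at 0.25, 0.25, -0.04, -0.39 and -0.03 over all genes, so the numbers were not used as pairs. For the clock genes the pairing is not settled, and the labels leave the shared mouse unstated.

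Named were the 7 members, the called genes of each context list (the 4 with the largest differences where there were more), and the gene most like each member (10-array mean above the median of all genes, predicted genes left out). Cry1, Cry2, Csnk1e, Arntl, Nr1d1, Nr1d2 and Pdxk were added to the named genes once their values were known. The members and lists were chosen with earlier results of these data known. Listed genes with no row that named them alone were not analysed here. A comparison of the proteins was not run.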

Additional observations from a re-analysis of the deposited data

Results flagged for a closer look

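Among the 22 sets of 5 arrays examined for an array far from the others (7 genes and 4 within-array differences on each side), 2 held one, and chance gives about 1 in 20. Contralateral replicate 4 had the lowest contralateral Hlf signal, 9.91 against 10.38 on the next array, and for the same reason Hlf minus Tef was 1.79 there, against 2.43 on the next array. Without that array the log2 difference of Hlf was -1.17 (limma adjusted p = 0.00273).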

How the results depend on the processing

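Under the settings tried, Hlf and Bhlhe40 kept their direction and, with the exceptions given here, their calls, and Bhlhe41 and Nfil3 passed under none. With 1 array left out, 2 to 3 of the 7 regulators were called lower, and the log2 difference lay between -1.19 and -0.97 for Hlf, -0.85 and -0.69 for Bhlhe40, and -0.71 and -0.48 for Ciart. Ciart also passed with the brighter 50% of genes (adjusted p = 0.033) and without the arrays numbered 1 on both sides (0.0166), and its adjusted p ran from 0.0166 to 0.253 over all settings. The sign of the differences near 0 was not settled: Dbp was -0.02 and Tef -0.064 with median centring, Tef was -0.0033 without the arrays numbered 2 and 4, and leaving out 1 array gave -0.0905 to 0.27 for Dbp and -0.046 to 0.10 for Tef.

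The replicate block (the number as a fixed term) gave adjusted p of 0.0168 for Hlf, 0.0509 for Bhlhe40 and 0.0268 for Ciart, and 780 genes lower and 182 higher over all genes; of the named context genes, Per1 (0.0612) and Npas2 (0.0869) lost their calls. Deviations of same-numbered arrays correlated at 0.25, 0.25, -0.04, -0.39 and -0.03, and 1 of the 5 ipsilateral arrays correlated best with its own number, so the pairing by number was not borne out over all genes. It is not settled for the clock genes, since the block took the SE of Dbp to 0.0932, against 0.241 without it, and that of Ciart to 0.0986, against 0.166. A random block changed no call of the 7. With rows of exactly 1 symbol Ciart has no value.

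Counts over all genes were 2634 lower and 231 higher with median centring, 541 and 47 at a threshold of 0.01, and 743 to 1616 lower and 112 to 766 higher with 1 array left out, with the lowest of both counts without contralateral replicate 1 and the most genes higher without ipsilateral replicate 1. Without the arrays numbered 1, 240 were higher, and Npas2 was not called (adjusted p = 0.0669). Without the arrays numbered 2 and 4 (chosen after seeing the data, as were the omission of the arrays numbered 1 and the use of rows with exactly 1 symbol), 287 were lower and 76 higher, and 0 regulators, 0 core loop genes, 1 clock-controlled gene, 0 bZIP relatives and 0 bHLH relatives were called lower. Core loop genes called lower numbered 3 at a threshold of 0.01 and 4 to 8 with 1 array left out. Clock-controlled genes called lower numbered 4 with median centring and 4 with the brighter 50% of genes; those called higher numbered 1 with the brighter 50% of genes, 2 without the arrays numbered 1 and 0 to 2 with 1 array left out (2 without ipsilateral replicate 1). Of the bHLH relatives, 2 were lower with quantile scaling and with median centring and 0 at a threshold of 0.01, and 1 was higher with the brighter 50% of genes and 0 to 1 with 1 array left out (1 without ipsilateral replicate 2). The causes were not tested. With 1 array left out, the within-array differences lay between -1.28 and -0.62 over the 4. Their direction could not change, since the 2 sides did not overlap in any pair. In 100 bases before the start, 3.17% of promoters held CACGTG, 3.77% TTANGNAA and 5.88% AGGTCA.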
